A study of Mus musculus with 19 samples.

Results

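Livers of male mice without macroH2A1.1 were compared with livers of male wild-type mice. The 9 liver libraries of a series of 19 were taken by the tissue and genotype in their labels. Of these 9, 5 came from homozygous knockouts (numbered 13, 14, 15, 16 and 18) and 4 from wild types (numbered 19, 20, 22 and 24). The other 10 libraries are kidneys and are used below only beside a liver value. Wild-type mouse 23 has a kidney library but no liver library among the 19.

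The knockouts carried a germline deletion of alternative exon 6b of H2afy (the gene of macroH2A1), made by soluble Cre on zygotes that held the floxed exon. Knockouts and wild types were bred from heterozygous parents after at least 10 generations of backcrossing to C57BL/6J. The deletion is in every cell, so a difference in liver need not start in liver cells. RNA came from whole homogenized tissue and was poly(A)-selected. In such bulk RNA, fewer cells of a type and less RNA per cell cannot be told apart. The labels mention a standard and a ketogenic diet without saying which mouse had which, and give no age, feeding state or hour of collection. Separate animals are not stated either, and the tests below reflect only how far the 9 livers spread, which may be technical.

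MacroH2A1 is a histone H2A variant with a large macrodomain attached to its C-terminal side, and it is enriched in silent chromatin. Splicing of mutually exclusive exons gives macroH2A1.1, whose macrodomain binds ADP-ribose and its polymers, and macroH2A1.2, whose macrodomain does not. Through this binding the first form is linked to poly(ADP-ribose) polymerases and to nuclear NAD use, and it is the form typical of differentiated tissue. The series as a whole asks how its loss affects nutrient use and the kidney.

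The alternative exons are shown because deletion of the macroH2A1.1 exon is what defines the knockouts. Both were read from GENCODE mouse transcripts on GRCm38, minus strand of chromosome 13, and each is the 6th exon of its transcript. The labels give exon 6b without coordinates, and it was matched here to the exon of the shorter protein, which is macroH2A1.1. Both are given from 5′ to 3′.
macroH2A1.1 exon (deleted), chr13:56088252-56088342: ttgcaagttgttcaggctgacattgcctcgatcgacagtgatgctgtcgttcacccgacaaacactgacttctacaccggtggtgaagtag
macroH2A1.2 exon (kept), chr13:56089758-56089857: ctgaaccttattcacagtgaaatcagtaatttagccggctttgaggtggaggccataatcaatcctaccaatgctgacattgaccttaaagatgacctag
The deleted exon has 91 bases and the kept one 100 bases. They encode the stretch of the macrodomain that differs between the forms, in proteins of 369 and 372 codons with the stop codon left out. The deleted exon makes up 4.71% of its transcript of 1933 bases, and the gene-level counts used here do not show which form a read came from.

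Liver libraries held 26084473 to 34806035 counts. Albumin (Alb), the main secreted product of hepatocytes, took 56646 to 68908 CPM (counts scaled to the library total), a level typical of liver. Correlations of log2 levels between libraries lay between 0.969 and 0.988. Knockout 18 stood at one end of the first principal component (-46.2) and wild type 24 at one end of the second (-43.0), and neither component separated the genotypes. The third component (14% of the variance) came closer, at -0.43 to 28.4 in knockouts and -28.9 to 1.12 in wild types, with knockout 14 below wild type 22. The share of counts from mitochondrial genes was 2.93% ± 0.82 in knockouts (SD, n = 5) and 3.14% ± 0.49 in wild types (SD, n = 4), exact two-sided permutation p = 0.675.

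After the low-count filter 14591 genes were tested in liver with edgeR, and none had an adjusted p under 0.05 (0 of 14591, 0%). The smallest adjusted p was 0.169. At an unadjusted p under 0.05 there were 609 genes, 4.17% of those tested, with 304 higher (2.08%) and 305 lower (2.09%) in knockouts. At an unadjusted p under 0.01 there were 148 (1.01%). Levels of all 5 knockouts lay above all 4 wild types for 116 genes (0.795%) and below them for 111 (0.761%). Over all genes tested, log2 fold changes had a median SE of 0.17, and the median absolute log2 fold change was 0.12. DESeq2, run on the same counts, called 42 genes (0.288%), of which 31 were higher and 11 lower, and 30 of them were the 30 with the smallest edgeR p. Every gene below is therefore given with its values, and none passed the edgeR test.

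Expression is given below in CPM, that is, counts scaled to the TMM-adjusted size of each library. A log2 fold change is knockout less wild type with its standard error. Of the 30 genes with the smallest p, 22 were higher and 8 lower in knockouts. The groups did not overlap for 28 of them, the exceptions being Unc5a and Irf2bp2. These genes were ranked on this contrast, so the counts describe the ranking.

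**Figure D1:**
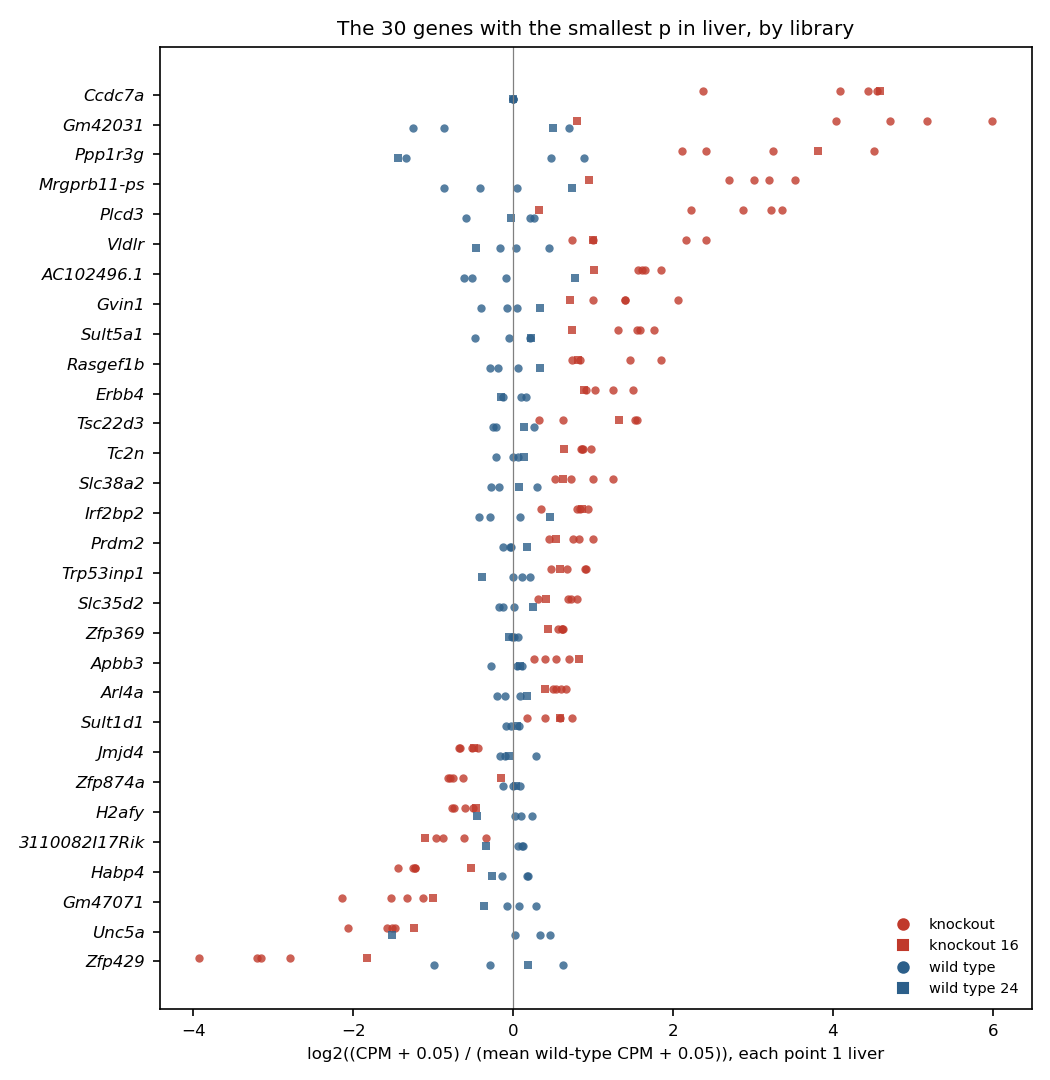
Level of each of the 30 genes in each liver, as log2 of CPM plus 0.05 over the wild-type mean plus 0.05; red points are knockouts and blue points wild types, with squares for knockout 16 and wild type 24. The square of knockout 16 is the red point nearest to the wild types for Habp4, Plcd3 and Gm42031, and that of wild type 24 lies among or beside the knockouts for H2afy and Unc5a.

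H2afy itself (ENSMUSG00000015937, chr13:56073619-56136361) had 43.9, 42.9, 51.6, 52.9 and 48 CPM in knockouts 13, 14, 15, 16 and 18. In wild types 19, 20, 22 and 24 it had 86.4, 77.9, 74.6 and 53.5 CPM. Wild type 24 stood next to the knockouts and the other 3 wild types well above them. The log2 fold change was -0.61 ± 0.13 (edgeR adjusted p = 0.384). When the liver labelled wild type 24 was left out the adjusted p was 0.0469, and over all alternatives it ranged from 0.0212 to 0.998. Leaving out the wild type nearest to the knockouts tends to lower p by itself. Knockouts still held H2afy transcripts, as a deletion of 1 alternative exon allows. The paralog H2afy2, which encodes macroH2A2, was low in all livers, at 1.53, 0.936, 0.946, 1.42 and 1.37 CPM in knockouts and 0.944, 0.836, 0.908 and 1.12 CPM in wild types, and the groups overlapped.

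Sult5a1, a member of the cytosolic sulfotransferase family, had the smallest p. Its level was 72.3, 70.3, 59.6, 39.8 and 81.8 CPM in the knockouts, in the order above, and 23.1, 17.1, 27.7 and 27.9 CPM in the wild types. Knockout 16 was the lowest knockout and still above every wild type. The log2 fold change was 1.43 ± 0.21 (adjusted p = 0.169). Sult1d1, another sulfotransferase, had 93.3 to 137 CPM in knockouts and 77.4 to 86.6 CPM in wild types, a log2 fold change of 0.51 ± 0.11. The phase II list as a whole had 24 of 43 tested members above 0 with a median of 0.03.

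Several other lead genes act in signalling and nutrient handling. Erbb4, a receptor tyrosine kinase for neuregulins, had 3.35, 3.65, 4.27, 3.3 and 5.1 CPM in knockouts against 1.89, 1.97, 1.6 and 1.59 CPM in wild types (1.15 ± 0.19). All knockouts lay above all wild types at this low level. Slc38a2, the neutral amino acid transporter SNAT2, had 182, 131, 150.4, 139 and 215 CPM against 80.2, 75.1, 112 and 95.6 CPM (0.85 ± 0.16). The low-density lipoprotein receptor relative Vldlr had 3.62, 4.29, 1.32, 1.58 and 1.58 CPM against 0.679, 1.07, 0.787 and 0.542 CPM (1.68 ± 0.40), with knockouts 13 and 14 highest. Trp53inp1, a p53-inducible protein of stress and autophagy, had a log2 fold change of 0.72 ± 0.14, while the p53 target list had 15 of 27 members above 0 and a median of 0.01.

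Lead genes that act on transcription included Prdm2 and Irf2bp2, beside H2afy and the zinc finger genes and Tsc22d3 described further on. Prdm2, of the PR/SET family of histone methyltransferases, had 50.2, 40.8, 52.8, 43.5 and 59.6 CPM in knockouts and 27.4, 29.3, 29.1 and 33.8 CPM in wild types (0.72 ± 0.12, adjusted p = 0.169). The highest wild type, 24, was below the lowest knockout, 14. Irf2bp2, a corepressor that binds IRF2, had 131, 119, 123, 124 and 86.8 CPM against 55.9, 50.8, 72.7 and 94.1 CPM (0.77 ± 0.18). Knockout 18 and wild type 24 crossed. Jmjd4, a JmjC-domain hydroxylase of a translation termination factor, was lower, at 7.18, 8.46, 8.09, 8.21 and 7.24 CPM against 10.7, 10.3, 14 and 11.1 CPM (-0.56 ± 0.13).

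Several lead genes, and Gm4316 that is not one of them, were low or close to off in 1 group. Ccdc7a, a coiled-coil protein gene on chromosome 8, had 7, 32, 28, 35 and 32 counts in the knockouts and 0 counts in each wild type. With a floor of 3 counts over the wild-type group, which is 0.0244 CPM, its pooled level of 0.848 CPM was at least 34.7-fold higher in knockouts. Plcd3, a phospholipase C of the delta class, had 9.84, 4.42, 6.97, 1.15 and 8.96 CPM in knockouts and 0.59, 1.1, 1.06 and 0.89 CPM in wild types (2.78 ± 0.55). Knockout 16 was at the wild-type level and the other 4 knockouts well above it. Gm42031, a predicted gene of chromosome 8, behaved alike with 12.7, 3.23, 7.14, 0.297 and 5.17 CPM against 0.059, 0.0334, 0.272 and 0.232 CPM, and so did the pseudogene Mrgprb11-ps with 0.897, 1.29, 1.63, 0.231 and 1.12 CPM against 0.059, 0.1, 0.0303 and 0.193 CPM. Gm4316, also on chromosome 8, had 696, 457, 146, 1 and 752 counts in knockouts and 1, 3, 2 and 1 in wild types, so that knockout 16 read as a wild type there. Ccdc7a, Gm42031, Mrgprb11-ps and Gm4316 passed the low-count filter only through the knockouts, and were tested only because of their level there.

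Over the 30 lead genes, knockout 16 was the knockout nearest to the wild-type mean for 16, knockout 14 for 9, and the other 3 knockouts for 1 or 2 each. Wild type 24 was the wild type nearest to the knockout mean for 15. Without knockout 16 edgeR called 7 genes: Plcd3, Habp4, Sult5a1, Gm4316, Gm42031, Mrgprb11-ps and Zfp874a. Without wild type 24 it called 5: Eps8l1, AC102496.1, Unc5a, Cxcl14 and H2afy, where Eps8l1 did not pass the low-count filter with all 9 livers. Without both livers edgeR called 11. Knockout 16 and wild type 24 most often lay nearest to the other group on this same contrast. Leaving out such livers tends to raise calls by itself, so these calls are not further support for the genes. Cxcl14, a chemokine gene on chromosome 13, was called only without wild type 24 among the fits run, with 29.5, 15.2, 10.8, 23.1 and 17.6 CPM in knockouts and 3.25, 4.35, 3.9 and 19.8 CPM in wild types. Its log2 fold change was 1.31 ± 0.59 in liver. In kidney it had the opposite sign, at -1.14 ± 0.19 (edgeR adjusted p = 0.146). AC102496.1, a noncoding RNA gene on chromosome 18, had 24.9, 21.7, 21.1, 13.9 and 20.4 CPM in knockouts and 6.46, 4.48, 4.78 and 11.7 CPM in wild types. Its log2 fold change was 1.58 ± 0.28 in liver and 1.38 ± 0.26 in kidney. Knockout 16 and wild type 24 are kept under their labels below, and no cause of their position was tested.

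Of the 42 genes called by DESeq2, 10 lay on chromosome 13, the chromosome of H2afy, which held 532 of the 14591 genes tested. Of these 532, 34 (6.39%) had an unadjusted p under 0.05. Within 10 Mb of H2afy, 15 of 128 tested genes (11.7%) had an unadjusted p under 0.05, with 6 higher and 9 lower, beside 4.17% of all genes. The 10 Mb that start at 60 Mb, a window singled out after the values were seen, held 17 such genes among 61 (27.9%), with 5 higher and 12 lower. Outside chromosome 13 the share was 4.09% of 14059 genes.

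**Figure D2:**
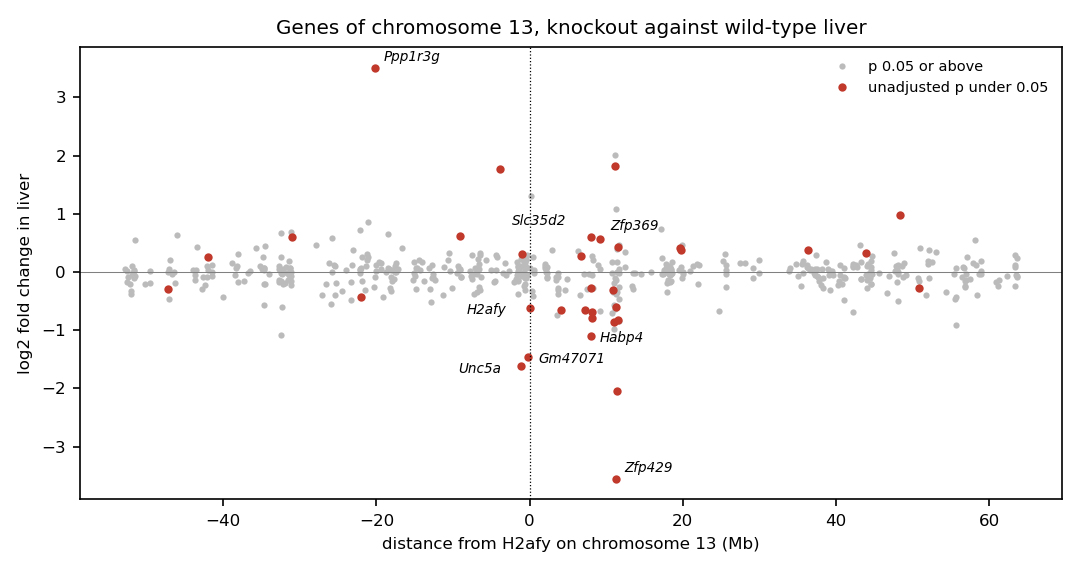
Log2 fold change in liver of each tested gene of chromosome 13 against its distance from H2afy in Mb; red points have an unadjusted p under 0.05 and grey points do not. Red points gather at H2afy and between 4 and 12 Mb to its right, while Ppp1r3g stands alone about 20 Mb to its left.

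Habp4, a hyaluronan- and RNA-binding protein gene 8.07 Mb from H2afy, had 40.5, 46.3, 47.1, 76.6 and 47.1 CPM in knockouts and 125, 124, 100.4 and 91.7 CPM in wild types (-1.10 ± 0.18, adjusted p = 0.169). Knockout 16 lay between the other knockouts and the wild types. Slc35d2, a nucleotide sugar transporter 8.01 Mb away, was higher instead, with 63.5, 82.2, 88.4, 68 and 83.9 CPM against 45.1, 51.3, 46.9 and 60.7 CPM (0.60 ± 0.13). Neighbours in this stretch thus had values in opposite directions. The netrin receptor gene Unc5a, 1.13 Mb on the other side, had 0.538, 0.807, 0.832, 0.989 and 0.773 CPM against 3.33, 2.44, 3.06 and 0.813 CPM (-1.62 ± 0.35), with wild type 24 at the knockout level. Distances are between gene midpoints. The predicted antisense gene Gm47071 (chr13:55826250-56084849) lies on the plus strand and overlaps H2afy itself, which lies on the minus strand. It had 0.568, 0.258, 0.487, 0.626 and 0.422 CPM against 1.24, 1.37, 1.6 and 1.01 CPM (-1.46 ± 0.30). The strand setting of the counting is not known, so reads of the overlap cannot be told apart between these genes.

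A cluster of zinc finger genes lies between 60 and 70 Mb. Of 26 tested there, 18 were lower, and 8 had an unadjusted p under 0.05, 5 of these lower (beside 4.17% of all genes, 2.09% lower). Zfp429 had 2, 1, 0, 5 and 1 counts in knockouts and 38, 10, 19 and 21 in wild types (-3.55 ± 0.63). It passed the low-count filter only through the wild types. Zfp874a had 10.2, 11.7, 10.7, 16.2 and 10.4 CPM against 17.9, 19.2, 16.5 and 18.5 CPM (-0.61 ± 0.14), and Zfp738 had 4.22, 3.81, 3.81, 4.91 and 2.25 CPM against 6.99, 7.55, 6.81 and 5.42 CPM (-0.82 ± 0.20). Zfp369 was higher, at 9.81, 9.91, 9.78, 8.7 and 9.46 CPM against 6.46, 6.35, 6.66 and 6.15 CPM (0.57 ± 0.11), with no overlap and narrow spreads in both groups. Such genes are near copies of each other, and reads shared among them may have been split in the counting.

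The kidneys carry the same mouse numbers and give a reading that the liver ranking did not use, though not one from other animals. Of the 30 lead genes 27 were tested there, 22 with the sign they had in liver (81.5%, beside 54.6% of all 13847 genes tested in both tissues). An unadjusted kidney p under 0.05 was found for 15 of the 27 (55.6%, beside 2.68% of all). On chromosome 13 it was 7 of 8, and elsewhere 8 of 19. The chromosome 13 exception was Habp4, at -0.19 ± 0.09 in kidney beside -1.10 ± 0.18 in liver. Only Unc5a passed the kidney test, with a log2 fold change of -2.35 ± 0.28 (edgeR adjusted p = 0.00775). Zfp429 (-3.35 ± 0.75), Zfp369 (0.56 ± 0.11) and H2afy (-0.58 ± 0.10) had kidney values close to their liver ones. Kidney values near 0 were found for Arl4a (0.02 ± 0.12), Tc2n (-0.06 ± 0.13), Slc38a2 (-0.10 ± 0.18) and Vldlr (-0.11 ± 0.10). No gene of 18549 passed the test of a difference in the knockout effect between the tissues (smallest adjusted p = 0.668). An unadjusted p under 0.05 was reached by 765 (4.12%). DESeq2 called 11, with Vldlr, Habp4 and Tc2n among them.

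**Figure D3:**
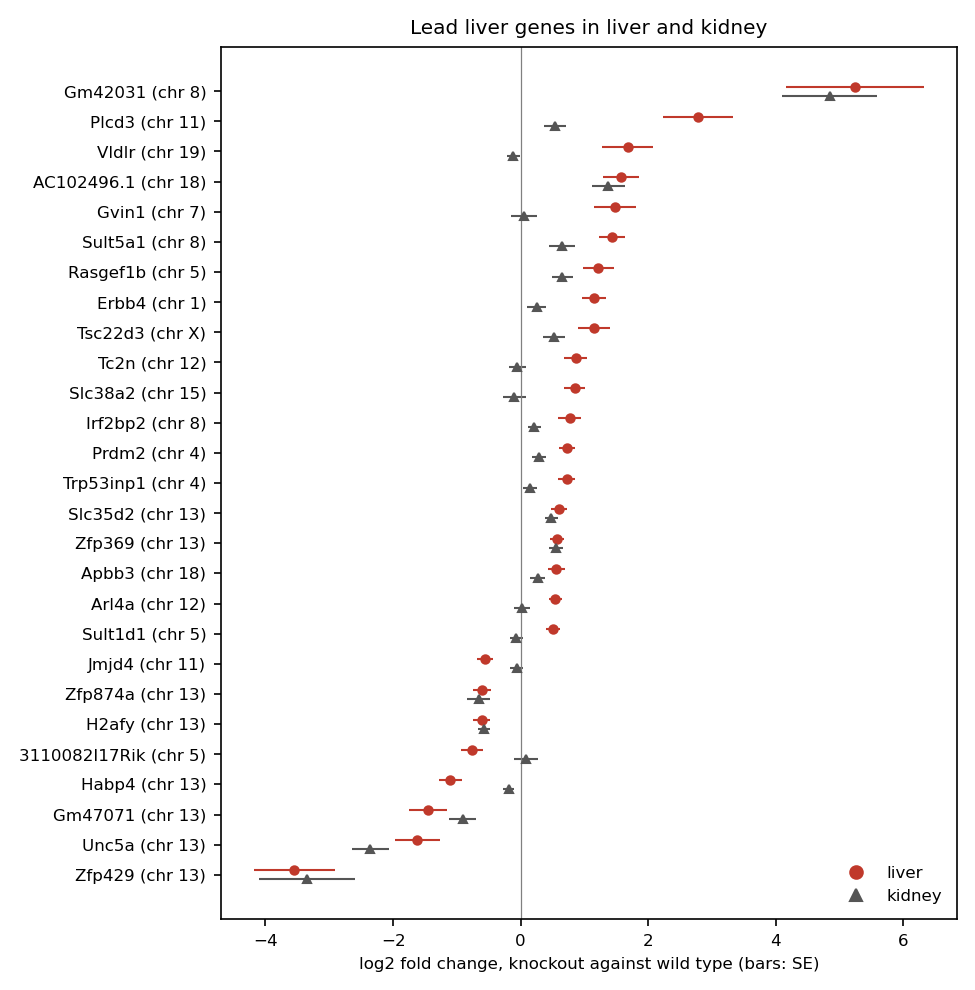
Log2 fold change with its standard error in liver (red circles) and kidney (grey triangles) for the 27 lead liver genes tested in both tissues. All 8 chromosome 13 genes lie on the same side of 0 in both tissues, with Habp4 much nearer to 0 in kidney than in liver. Vldlr, Gvin1, Tc2n and Slc38a2 sit near 0 in kidney.

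Genes that glucocorticoids induce in liver leaned higher as a list. Of 25 tested members 18 were above 0, with a median log2 fold change of 0.42 beside 0.004 for all genes, of which 51.3% were above 0. An unadjusted p under 0.05 was reached by 7, all higher, where 2.08% of all genes were higher at that p. None passed the adjusted test. Leaving out knockout 13, wild type 19 or wild type 20 brought the median to 0.28 in each case, and leaving out knockout 16 and wild type 24 together to 0.25. Mean list levels, centred on each gene, were 0.50, -0.27, 0.15, 0.27 and 0.19 in the knockouts and -0.42, -0.43, 0.21 and -0.20 in the wild types. Knockout 14 and wild type 22 each stood with the other group.

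Tsc22d3, whose product GILZ mediates anti-inflammatory effects of glucocorticoids, had 99.2, 80.7, 185, 161 and 188 CPM in knockouts and 55.4, 76.9, 54.2 and 70.7 CPM in wild types (1.15 ± 0.25, adjusted p = 0.522). Knockouts 15, 16 and 18 stood far above every wild type, and knockout 14 just above. Igfbp1, the insulin-repressed binding protein of insulin-like growth factors, had 229, 314, 207, 192 and 250.1 CPM against 80.6, 70.7, 174 and 164 CPM (0.96 ± 0.28). Its groups did not overlap. Per1, a clock gene with hormone-driven transcription, had 46.2, 6.39, 26.6, 55.2 and 25.7 CPM against 5.58, 3.61, 13.3 and 6.15 CPM (2.16 ± 0.63), with knockout 14 among the wild types. Tat, tyrosine aminotransferase, had 2068, 1239, 1568, 1538 and 1608 CPM against 908, 1115, 1350 and 1134 CPM (0.51 ± 0.15). Lpin1, the phosphatidate phosphatase and coactivator that is raised in fasting, had 426, 27.2, 198, 509.5 and 408 CPM against 54.6, 50.4, 151 and 26.3 CPM (2.15 ± 0.85), and knockout 14 was again at the bottom. Cebpd (0.76 ± 0.23) and Klf9 (0.48 ± 0.21), both transcription factors, complete the 7. Zbtb16, a transcription factor induced by glucocorticoids, had 53, 5.55, 11.4, 24.5 and 9.7 CPM against 8.53, 8.62, 12.6 and 3.79 CPM. Fkbp5, a chaperone that feeds back on the receptor, had a log2 fold change of 0.45 ± 0.54, which turned sign without knockout 16 and wild type 24 (-0.0883). The repressor Bcl6 had one of -1.10.

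Promoters of this group are shown for 1 start site each of Per1, Tsc22d3 and Lpin1, the 3 with the largest log2 fold changes among its 7 members at an unadjusted p under 0.05. Windows run from 250 bases before to 50 after a RefSeq start site on GRCm38.p6. Searched on both strands were the glucocorticoid receptor half-site TGTTCT, the E-box CACGTG of clock factors, and the TGACG core of cyclic AMP response elements. Capitals mark the matches. Of the start sites of Per1 and Tsc22d3, the one shown is the only one with the E-box or the half-site, respectively. The first of Tsc22d3 held no match.
Per1, first start site, plus strand, chr11:69098699-69098998: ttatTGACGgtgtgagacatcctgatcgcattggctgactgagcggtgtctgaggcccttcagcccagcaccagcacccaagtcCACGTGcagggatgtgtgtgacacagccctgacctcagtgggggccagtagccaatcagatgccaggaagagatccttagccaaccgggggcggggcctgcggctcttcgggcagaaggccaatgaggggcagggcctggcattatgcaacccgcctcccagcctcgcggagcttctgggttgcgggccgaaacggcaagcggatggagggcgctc
Tsc22d3, second start site, minus strand, chrX:140600473-140600772: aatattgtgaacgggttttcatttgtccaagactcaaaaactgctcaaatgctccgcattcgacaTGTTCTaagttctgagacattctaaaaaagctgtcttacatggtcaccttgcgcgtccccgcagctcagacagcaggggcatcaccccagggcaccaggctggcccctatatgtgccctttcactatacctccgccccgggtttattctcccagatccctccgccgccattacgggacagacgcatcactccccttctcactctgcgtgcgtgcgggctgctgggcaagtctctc
Lpin1, minus strand, chr12:16610917-16611216: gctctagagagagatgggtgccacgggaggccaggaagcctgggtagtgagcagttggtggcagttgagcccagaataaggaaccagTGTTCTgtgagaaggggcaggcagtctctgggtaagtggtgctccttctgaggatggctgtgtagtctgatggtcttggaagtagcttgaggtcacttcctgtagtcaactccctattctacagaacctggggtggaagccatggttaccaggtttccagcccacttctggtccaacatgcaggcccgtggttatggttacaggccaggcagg
Per1 held an E-box that starts 166 bases before the start site and a TGACG core 246 bases before it. Tsc22d3 held the half-site 185 bases before 1 of its 3 start sites, and Lpin1 held it 163 bases before its own. The TGACG core also stood 132 bases before the second start site of Per1, 224 bases before the third of Tsc22d3 and 46 bases before that of Klf9. Of the 7 members, 6 had a promoter in the table, and 2 of these held the half-site, 3 the TGACG core and 1 the E-box at any of their start sites. Of all 27025 genes in the table, 5750 (21.3%) held the half-site at any start site, 6228 (23.05%) the TGACG core and 2187 (8.09%) the E-box. Per1 and Tsc22d3 have more than 1 start site and so more windows to hold a match. These matches are letters in a short window and show no binding.

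Genes of glucose supply and of the fed state were read next. The gluconeogenesis and glycogen list had 17 of 22 members above 0 and a median of 0.18, with 3 higher and 1 lower at an unadjusted p under 0.05. Over all genes 51.3% were above 0 and 4.17% had such a p. Without knockout 13, or without both knockout 16 and wild type 24, the median was 0.10. Ppp1r3g, which targets protein phosphatase 1 to glycogen and is known to be raised in fasting, had 9.18, 4.13, 5.1, 13.6 and 22.2 CPM in knockouts and 1.74, 0.334, 1.3 and 0.31 CPM in wild types (3.51 ± 0.69). The groups were far apart. Ppp1r3g passed the low-count filter only through the knockouts, as wild type 24 fell below the filter's threshold. Its relative Ppp1r3c was lower, with 34.8, 67.1, 57.1, 58.8 and 35.3 CPM against 55.2, 114, 77.2 and 93.6 CPM (-0.75 ± 0.25). Pck1, the enzyme that commits oxaloacetate to glucose, had 4574, 1968, 3213, 3811 and 2931 CPM against 1650, 1744, 3568 and 1289 CPM, and G6pc, which releases glucose, had 369, 740.5, 739, 421 and 905 CPM against 314, 335, 469 and 547 CPM. Both overlapped between groups.

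Feeding-responsive lipid genes were spread more widely within the groups. Angptl4, an inhibitor of lipoprotein lipase that is high in fasting, had 207, 79.5, 249, 248 and 291 CPM in knockouts and 83.2, 68.8, 161 and 38.4 CPM in wild types (1.29 ± 0.47). Angptl8, its feeding-induced relative, had 22.7, 26.8, 27.9, 47.2 and 20.3 CPM against 27, 81.9, 96 and 111 CPM (-1.45 ± 0.40), with wild type 19 among the knockouts. Fasn, fatty acid synthase, had 281, 393, 244, 272 and 273 CPM against 312, 397, 402 and 604 CPM (-0.55 ± 0.19). The lists behind these genes were flat: lipogenesis had 10 of 19 members above 0 (median 0.03), fatty acid oxidation and PPARA targets 26 of 38 (0.05), ketone bodies 4 of 9 (-0.04), and insulin and fasting signals 15 of 27 (0.02). Cholesterol synthesis had 18 of 24 members below 0 with a median of -0.07, and Idi1, an isomerase of the pathway, had a log2 fold change of -0.29 ± 0.13. Leaving out 1 liver at a time moved that median between -0.16 and -0.01, the latter without wild type 20.

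**Figure D4:**
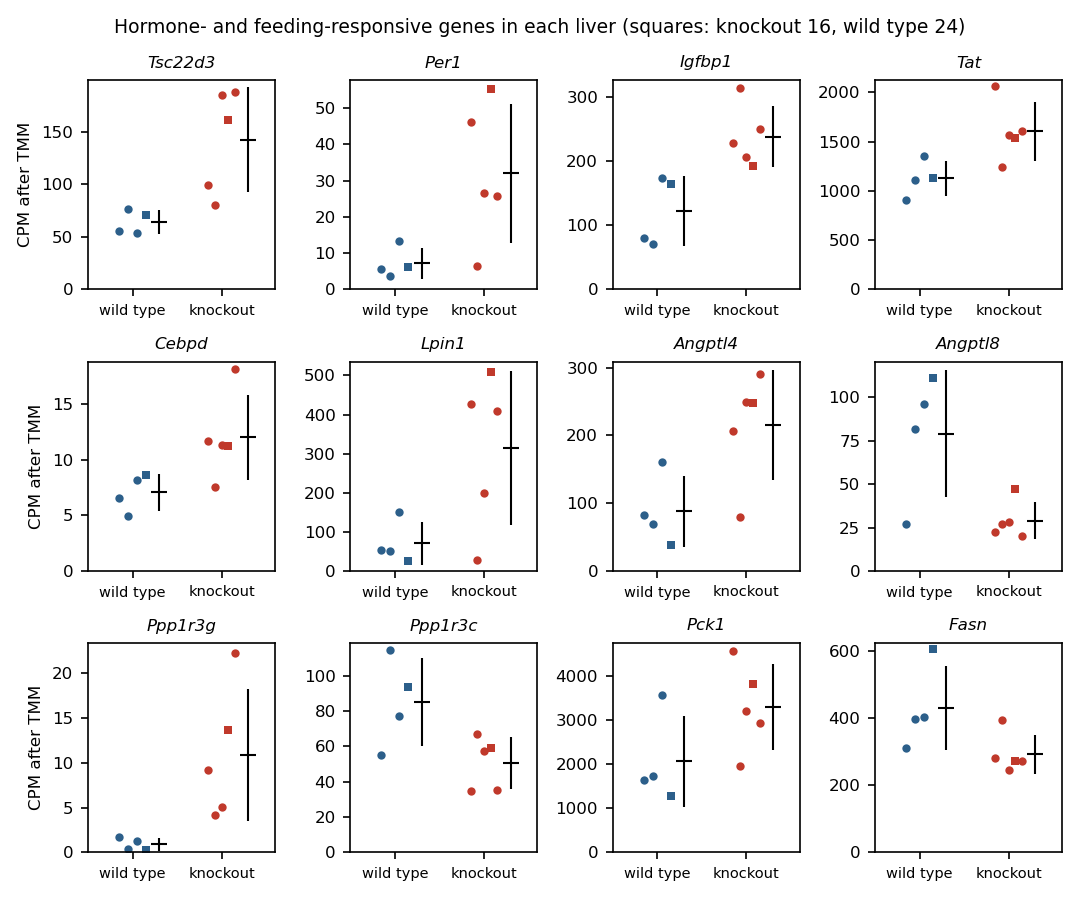
Level in CPM of 12 hormone- and feeding-responsive genes in each liver, wild types in blue and knockouts in red, with the mean and SD as a black mark and bar. The groups are apart for Tsc22d3, Igfbp1 and Ppp1r3g and overlap for the other 9.

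Clock genes differed from mouse to mouse within each group. Dbp, an output gene with a steep daily rhythm, had 13.5, 1.26, 2.29, 49 and 4.78 CPM in knockouts and 18.9, 14.2, 15.5 and 0.696 CPM in wild types. Nr1d1 (REV-ERB alpha) had 114, 36.2, 64.9, 138 and 45 CPM against 88.7, 91.7, 105 and 17.3 CPM, and Arntl (BMAL1), which runs in the opposite phase, had 17.5, 20.5, 12.4, 5.31 and 6.54 CPM against 8.65, 13.4, 14.8 and 20.9 CPM. Knockout 16 had the most Dbp and the least Arntl of the 9 livers, and wild type 24 had the least Dbp and the most Arntl. Npas2 followed Arntl, with 10.5 CPM in knockout 14 and 10.3 CPM in wild type 24 beside 0.593 CPM in knockout 16. The clock list had 9 of 22 members above 0 and a median of -0.06, which went from -0.12 without knockout 16 to 0.05 without knockout 18. The part that this spread has in the glucocorticoid and feeding genes above was not tested. The clock genes other than Per1, and Pck1, G6pc and Zbtb16, were named after their values had been seen.

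Interferon-stimulated genes had a one-sided count. Of 42 tested members 37 were above 0, with a median of 0.31, and at an unadjusted p under 0.05 there were 9 higher and 2 lower. Over all genes 51.3% were above 0, and 2.08% were higher and 2.09% lower at that p. The centred list level was -0.16, 0.01, 0.41, -0.18 and 0.35 in the knockouts and -0.09, -0.13, -0.15 and -0.06 in the wild types. Knockouts 15 and 18 carried the list, and knockouts 13 and 16 lay below every wild type. Without knockout 15 the median was 0.19, and without knockout 18 it was also 0.19.

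Irf7, the inducible regulator of the interferon response, had 40.2, 46, 79.1, 46.1 and 82.4 CPM in knockouts and 37.2, 31.3, 36.1 and 36.7 CPM in wild types (0.73 ± 0.21). The groups did not overlap. Cxcl9, a chemokine for T cells, had 10.1, 7.2, 9.49, 6.66 and 8.44 CPM against 5.28, 5.58, 4.3 and 6.58 CPM (0.63 ± 0.17), also without overlap. Ifi44 (0.94 ± 0.32), Gbp3 (0.64 ± 0.23) and Isg15 (0.99 ± 0.46) were highest in knockouts 15 and 18. Irf1 was lower, with 32, 28.5, 28.4, 30 and 15.5 CPM against 45.3, 42.5, 48.2 and 30.8 CPM (-0.63 ± 0.19), and Cxcl10, a related chemokine, had a log2 fold change of -0.55 ± 0.24. The T and NK cell markers summed to 8.65 to 11.5 CPM in knockouts and 8.05 to 11.6 CPM in wild types. B and plasma cell markers summed to 173 to 256 CPM and 179 to 236 CPM, and knockouts 15 and 18, the interferon-high livers, were the 2 highest of these sums.

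Endoplasmic reticulum chaperones and unfolded protein response genes had 20 of 24 members above 0 and a median of 0.22, but none at an unadjusted p under 0.05. Hspa5 (BiP), the main chaperone, had 738, 701, 903, 2424 and 1225 CPM in knockouts and 795, 669, 696 and 1486 CPM in wild types. Creld2 had 38, 35.7, 99.8, 397 and 134 CPM against 59, 42.8, 43 and 109.6 CPM, and Derl3 had 1.56, 3.45, 4.04, 61.4 and 7.06 CPM against 3.51, 2.51, 10.1 and 8.98 CPM. Knockout 16 was the highest liver for all 3. Without it the list had 10 of 24 members above 0 and a median of -0.02. These 3 genes were named after their values had been seen, and the list's lean was that of 1 library.

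Xenobiotic cytochrome P450 genes had 31 of 41 members above 0 with a median of 0.14, and 4 higher at an unadjusted p under 0.05, beside 51.3% and 2.08% of all genes. Without knockout 18 the median was 0.07. Cyp2a5, the coumarin hydroxylase, had 340.3, 219, 444, 444 and 568 CPM in knockouts and 315, 297, 252 and 268 CPM in wild types (0.51 ± 0.22). Cyp2c39 had 0.628, 21.9, 0.459, 13.9 and 0.527 CPM against 0.413, 0.568, 0.303 and 0.464 CPM. Knockouts 14 and 16 stood far above the other 7 livers, knockout and wild type alike. Cyp2c39 passed the low-count filter only with knockouts counted, as wild type 22 fell below the filter's threshold. Members of these families are near copies, so reads may be shared between them. Nuclear genes of the respiratory chain had 46 of 53 members above 0 with a median of 0.12 and none at an unadjusted p under 0.05. Without knockout 18 the count was 30 of 53 with a median of 0.01, and without wild type 22 it was 35 with a median of 0.04. All 12 tested genes of the mitochondrial genome were below 0 (median -0.12), 8 of 12 without knockout 18, where the median was -0.04. Without knockout 13 it was -0.29.

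Secreted and male-typical liver products were more often below 0. Plasma protein and acute phase genes had 36 of 50 members below 0, at a median of only -0.04, and 22 of 50 below 0 without wild type 22, 25 without knockout 14 and 26 without knockout 16. Major urinary proteins, male-typical carriers of pheromones, had 12 of 14 below 0 (median -0.25). Without wild type 24 this was 7 of 14 with a median of -0.07, without knockout 15 the median was -0.09, and without knockout 13 it was -0.38. Mup20 had 6808, 7149, 8135, 11122 and 5754 CPM in knockouts and 11187, 8369, 8038 and 15854 CPM in wild types (-0.48 ± 0.23), with wild type 24 highest. Mup genes are near identical and their reads may be split. Male-biased genes had 16 of 20 below 0 (median -0.11, or -0.07 without knockout 15 and -0.16 without knockout 13), and Cyp4a12b, a male-specific hydroxylase, had 45, 43.8, 38.1, 53.5 and 27.9 CPM against 61.4, 69.4, 58.7 and 49.3 CPM (-0.52 ± 0.16). Slco1a1, a male-typical organic anion transporter, was higher, with 445, 446, 476, 495 and 499 CPM against 406, 385, 390.2 and 416 CPM (0.24 ± 0.09) and no overlap. Female-biased genes had 8 of 12 tested members above 0 (median 0.06), with medians from -0.0012 without knockout 18 to 0.28 without wild type 20.

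Genes closest to the function of macroH2A1.1 were flat. The ADP-ribosylation and sirtuin list had 15 of 29 members above 0 and a median of 0.00. Only Macrod1 and Macrod2 among them reached an unadjusted p under 0.05, both macrodomain hydrolases of ADP-ribose. Over all genes 4.17% had such a p, a share that also stands beside the lists that follow here. Macrod1 had 52.1, 59.7, 67.2, 63.6 and 70.3 CPM in knockouts and 56, 60, 47.1 and 46.8 CPM in wild types (0.25 ± 0.11). Macrod2 had 3.8, 3.13, 4.07, 3.86 and 4.22 CPM against 3.22, 2.84, 2.48 and 3.17 CPM (0.38 ± 0.16). Both overlapped between groups. NAD synthesis and use had 9 of 21 above 0 (median -0.03). Its members at an unadjusted p under 0.05 were Nampt, the salvage enzyme (0.39 ± 0.15), and the aldehyde oxidase Aox3 (-0.36 ± 0.14). Replacement histones had 6 of 11 above 0 (median 0.01), with H2afy as the only one at an unadjusted p under 0.05.

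Bile acid genes, the urea cycle and zonation also had list medians near that of all genes. Bile acid synthesis and transport had 15 of 24 above 0 (median 0.02). At an unadjusted p under 0.05 it had 2 higher and 1 lower, beside 2.08% and 2.09% of all genes. These members were Slco1a1, given above, Fgfr4, the receptor for the gut hormone FGF15 (0.31 ± 0.12), and Cyp8b1, the sterol hydroxylase that sets cholic acid (-0.35 ± 0.15). Urea cycle and amino acid breakdown had 20 of 41 above 0 (median -0.00). Pericentral genes had 11 of 22 and periportal genes 9 of 23 above 0. DNA replication and division genes had 15 of 31 above 0 (median -0.07), with medians from -0.12 without wild type 22 to -0.0081 without knockout 18. Those with an unadjusted p under 0.05 (2.08% of all genes higher, 2.09% lower) were Ccnb2, higher (0.82 ± 0.26), and Mcm4 (-0.42 ± 0.16) and Gins2 (-1.06 ± 0.46), both lower. Gins2 overlapped between groups and the others did not, all at levels of a few CPM or less. Gins2 passed the low-count filter only through the wild types.

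Markers of other cells were set beside these results. Hepatocyte markers had 4 of 12 above 0 (median -0.02). Stellate cell markers had 11 of 13 below 0 (median -0.21, or -0.14 without knockout 14) and summed to 347 to 463 CPM in knockouts and 452 to 500 CPM in wild types. Kupffer cell and macrophage markers had 12 of 16 below 0 (median -0.18, or -0.10 without wild type 19, -0.11 without wild type 22 and -0.12 without knockout 18), and Lyz2, macrophage lysozyme, had 56.6, 40.4, 63.9, 46.3 and 52.7 CPM against 81.2, 60.8, 77.6 and 57.4 CPM (-0.41 ± 0.15). All 6 tested neutrophil markers were below 0, with wild type 22 the highest liver at a sum of 21.2 CPM, and the list's median was -0.76, or -0.14 with 4 of 6 below 0 without that liver. Of 12 skeletal muscle markers with counts, 8 passed the filter, some only through the knockouts. Of these 7 were above 0 (median 1.98, and 0.99 without knockout 13), and all markers summed to 2.45 to 19 CPM in knockouts and 3.00 to 5.22 CPM in wild types. Ckm, muscle creatine kinase, had 58, 1, 24, 12 and 26 counts in knockouts and 2, 2, 5 and 3 in wild types (2.90 ± 0.82), so these are traces. Knockout 13 was highest and knockout 14 lowest for the muscle sum, and their part in any result was not tested.

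**Figure D5:**
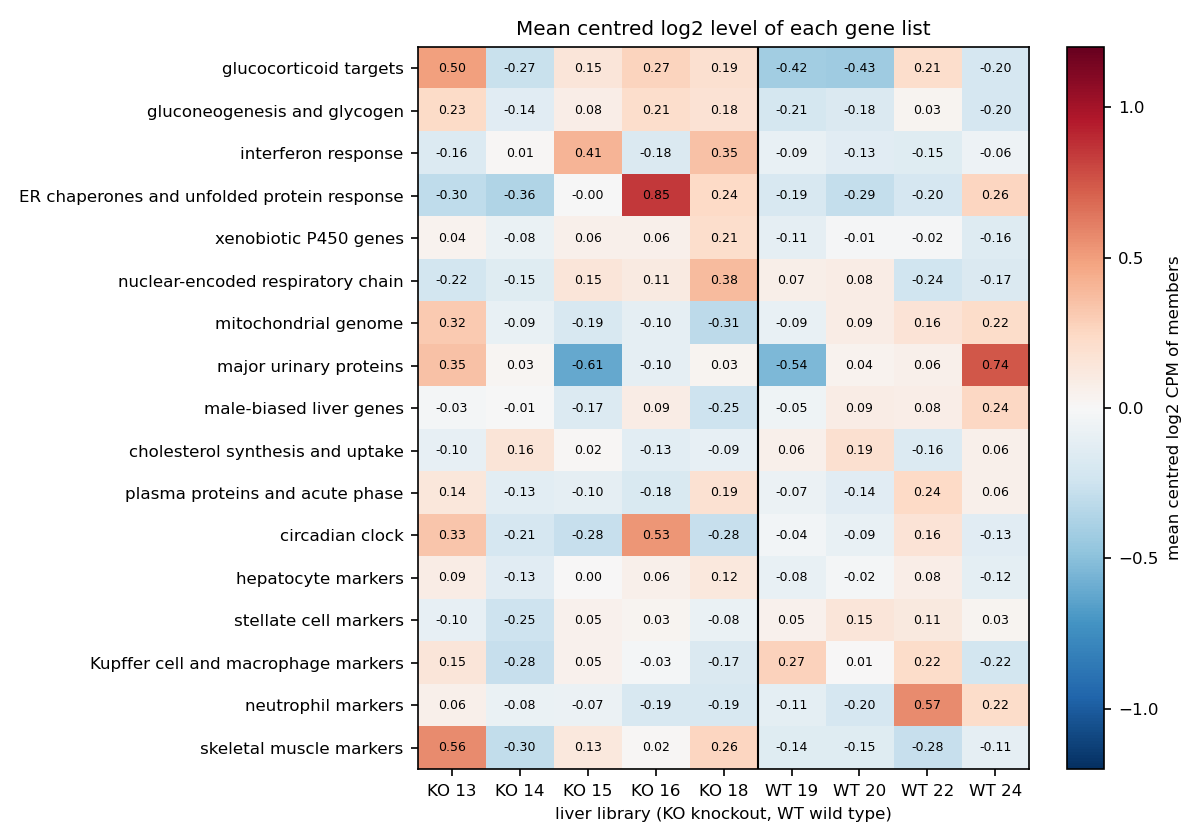
Mean over the members of each list of log2 CPM less the gene's mean over the 9 livers, for 12 pathway and 5 cell type lists, with each cell's value printed; red is higher and blue lower. Single livers stand out within their group, such as knockout 16 for the endoplasmic reticulum list (0.85), knockouts 15 and 18 for interferon genes (0.41 and 0.35), and wild type 24 for the major urinary proteins (0.74).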

How the data were processed

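Per the labels, poly(A) RNA of whole liver was sequenced, and per the submitters' processing notes Trim Galore, STAR, featureCounts and DESeq2 were used on GRCm38, with versions and strand setting not given in the sources used here. The authors deposited raw counts per gene for 26506 genes in 19 libraries, with no normalization. Without a known strand setting, reads of overlapping or antisense genes cannot be told apart. Of the gene identifiers 26417 matched GENCODE mouse release 21, and 89 did not.

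The 9 livers (26084473 to 34806035 counts) were fitted alone in R 4.3.3 with edgeR 4.0.16 (quasi-likelihood F test), after filterByExpr (minimum count 10) and TMM scaling, with two-sided p-values adjusted by the Benjamini-Hochberg method over 14591 genes at 0.05. The difference between tissues was an interaction over all 19 libraries. The fits were tested on simulated counts. Alternatives were DESeq2 1.42.0 (adjusted p missing for 4 genes), limma 3.58.1 voom with sample weights, other scalings and filters, 1 fit of all libraries, and leaving out livers. Mitochondrial shares were compared with an exact permutation test over 126 arrangements (smallest p 0.00794).

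The comparison, the 51 gene lists (1098 of 1131 entries found) and the alternatives were chosen with earlier results of these data known. Named were H2afy and H2afy2, the 30 genes with the smallest p, the list members with the smallest p (up to 4 a list at an unadjusted p under 0.05) and genes within 10 Mb of H2afy at an unadjusted p under 0.01. Genes outside this rule, named after their values were seen, were Eps8l1, Cxcl14, Gm4316, Zfp738, Gbp3, Isg15, Cxcl10, Fkbp5, Bcl6, Klf9, Zbtb16, Lepr, Pim3, Pck1, G6pc, Hspa5, Creld2, Derl3 and the clock genes other than Per1. Most listed genes that fell outside the rule are given as counts, and some that the rule names are not reported here. Promoter sequences are from RefSeq.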

Additional observations from a re-analysis of the deposited data

Results flagged for a closer look

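Each gene named in the report, except Eps8l1, was checked for a liver far from the others of its group, a gap that chance gives in about 1 of 20 groups. Knockout 16 stood apart upward from the other knockouts for Angptl8 (47.2 CPM), Creld2 (397 CPM), Derl3 (61.4 CPM), Dbp (49.0 CPM), Habp4 (76.6 CPM) and Zfp874a (16.2 CPM). For Habp4 and Zfp874a, both on chromosome 13 and lower in knockouts, this placed it nearest to the wild types. Wild type 24 stood apart from the other wild types for Hspa5 (1486 CPM), Cxcl14 (19.8 CPM), Ccn2 (7.43 CPM) and 3110082I17Rik (8.47 CPM), in the last 3 toward the knockouts. Knockout 18 was the low one for Irf1 (15.5 CPM) and Irf2bp2 (86.8 CPM). Knockout 14 was the high one for Fasn (393 CPM), and wild type 22 the low one for Idi1 (46.2 CPM). Knockout 15 was the high one for Cxcl10 (6.25 CPM), and wild type 22 the high one for Fkbp5 (36.6 CPM). In all there were 16 such livers among 172 groups, and their causes were not tested.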

How the results depend on the processing

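The count of 0 genes called by edgeR held with other scalings, with a filter of 1 CPM in 4 livers and without mitochondrial and haemoglobin genes. It was 3 with no filter, 5 with limma voom, 21 with all 19 libraries in 1 fit, 42 with DESeq2 and 11 without libraries 16 and 24. Leaving out 1 liver gave 0 to 7, with calls only without knockout 13 (1, Ccdc7a), knockout 16 (7) or wild type 24 (5). Knockout 16 and wild type 24 most often lay nearest to the other group on this contrast, so leaving them out tends to raise calls by itself. Genes without overlap went from 227 to 862 without libraries 16 and 24, where fewer samples make overlap rarer. The count of 0 genes with a difference between tissues became 11 with DESeq2 and 0 to 3 without 1 mouse, and was 0 with the mouse number as a replicate block. No paired analysis was possible because knockout and wild-type livers share no mouse number. The mitochondrial share differed by -0.50 to 0.004 percentage points without 1 liver, and no alternative passed the test. Of the 85 genes followed, 77 kept their direction in every alternative that gave a value. Without libraries 16 and 24 the sign turned for Derl3 (-0.42), Alb (0.0202), Arntl (0.22), Dbp (-1.57), Npas2 (0.94), Nr1d1 (-0.55) and Fkbp5 (-0.0883), and with voom for Dbp (-1.13) and Nr1d1 (-0.10). Without 1 liver the ranges were -0.0324 to 0.73 for Hspa5, -0.64 to 1.64 for Derl3, -0.0902 to 0.0141 for Alb, -0.47 to 0.0217 for Arntl, -1.18 to 0.48 for Dbp, -1.13 to 0.66 for Npas2 and -0.26 to 0.26 for Nr1d1. The causes were not tested. Counts limit Gins2, Ccdc7a, Zfp429, H2afy2, Ccnb2, Gm47071, Mrgprb11-ps and Ckm, which had at most 58 counts in any liver.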

Other observations

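A few further genes, and Bcl6 of the glucocorticoid list, had wide values within the knockouts. Those of Bcl6 were also wide within the wild types (SD 24.5 CPM, beside 15.5 CPM in knockouts). Lepr, the leptin receptor, had 3.05, 1.94, 5.76, 10.6 and 12.4 CPM in knockouts and 4.16, 2.74, 4.87 and 1.01 CPM in wild types, a log2 fold change of 1.06 ± 0.61. Bcl6, a repressor that restrains growth hormone and fasting programmes, had 14.8, 19.8, 41.3, 43.4 and 10.1 CPM against 36.4, 83.7, 68.1 and 33.7 CPM (-1.10 ± 0.48). Pim3, a serine/threonine kinase called by DESeq2, had 201, 81.2, 93.1, 214.0 and 134 CPM against 58.4, 45.4, 91.7 and 70.8 CPM (1.12 ± 0.33). All 3 overlapped between groups.

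Stress, immediate early and matrix genes had list medians from -0.15 to 0.08, beside 0.004 for all genes, of which 51.3% were above 0. Heat shock proteins had 15 of 22 members above 0 (median 0.06, or -0.02 without knockout 16) and the ATF4 and amino acid response list 17 of 25 (0.08, or 0.02 without knockout 16), with Chac1, a glutathione-degrading enzyme, at 0.91 ± 0.36. Immediate early genes had 14 of 23 below 0 (median -0.15), but the median was 0.16 without wild type 24 and 0.05 with limma voom. Extracellular matrix genes had 22 of 31 below 0 (-0.09, or -0.03 without wild type 24 and -0.13 without wild type 19). Ccn2, connective tissue growth factor, went against both with 5.50, 6.39, 14.4, 8.01 and 12.4 CPM in knockouts and 2.60, 2.94, 3.33 and 7.43 CPM in wild types (1.21 ± 0.38). The knockouts lay above 3 of the 4 wild types, and wild type 24 lay among them.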
